A study of Mus musculus with 6 samples.

Results

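The first 3 days of embryoid body (EB) differentiation in the ESC line that expresses wild-type H2A.Z are described here, from 2 of the 6 libraries of the study. EBs are free-floating aggregates that mouse embryonic stem cells (ESCs) form on plates they cannot attach to, in medium without leukemia inhibitory factor (LIF), the cytokine that keeps them undifferentiated. The members were the gene entries of the deposited table with at least 1 RPKM (reads per kilobase of transcript, scaled to the number of mapped reads) in the H2A.Z WT library at D0 (attached ESCs) or at D3 (EBs). These were 12240 of 21639 entries. The change of a gene is given throughout as log2((D3 RPKM + 1)/(D0 RPKM + 1)), and a gene was called higher or lower when this passed 2-fold.

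All lines of the study are male ESCs labelled as strain V6.5 (129SvJaexC57BL/6), and the transgenes went into KH2 ESCs. H2A.Z WT cells carry a lentiviral H2A.Z-YFP transgene under a doxycycline-inducible CMV promoter, were sorted for YFP, and carry a short hairpin against the endogenous *H2afz* transcript. H2A.Z AP3 cells were made in the same way with a transgene in which 3 acidic patch residues were replaced by those of H2A, and H2A.Z KD cells are those with the hairpin-depleted endogenous gene. Each line gave 1 library at D0 and 1 at D3 (the labels call the cells embryonic stem cells on both days, and the methods describe the D3 cultures as EBs), so the days cannot be tested within the H2A.Z WT line. A fit of the days over all 3 lines, with the line as a block, was not made, since it would describe their mean and not this line. The ESCs had been kept on irradiated mouse embryonic fibroblasts (MEFs), which were left out in the final passage. Loss of LIF, loss of attachment, aggregation and time changed together between the days and cannot be told apart. In these pooled cultures, fewer cells of a type and less RNA per cell cannot be told apart either.

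H2A.Z is a histone variant found in nucleosomes next to transcription start sites. When mouse ESCs lose LIF, factors of the naive state such as *Klf4* and *Tcfcp2l1* decline while *Pou5f1* and *Sox2* stay on, and genes of the post-implantation epiblast such as *Fgf5* and *Otx2* switch on. The outer cells of an EB become primitive endoderm, which expresses the factors GATA4, GATA6 and SOX17, lays down a basement membrane of type IV collagen and laminin, and matures into visceral endoderm, an absorptive epithelium that takes up proteins through cubilin, amnionless and megalin.

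At D3, 287 entries were at least 2-fold higher (2.34% of the 12240) and 339 were at least 2-fold lower (2.77%), and 11614 were under 2-fold in either direction. These counts depended on the settings: they were 569 and 604 with a pseudocount of 0.1, and the side with more calls turned among entries with at least 5 RPKM (194 higher and 184 lower) and at a 1.5-fold threshold (1057 higher and 917 lower). The entries called higher carry 285 symbols and those called lower carry 328. At 4-fold 31 were higher and 56 lower, and at 8-fold 6 were higher and 15 lower, so more of the differences of these sizes lay on the side of lower levels. Without the entries named as small RNAs the counts were 25 and 47 at 4-fold, and 3 and 13 at 8-fold. The median change over all 12240 was 0.03, with quartiles of -0.21 and 0.28. The entries called higher had a median of 2.52 RPKM at D0 and 8.54 RPKM at D3, and those called lower went from a median of 6.09 to 1.29 RPKM. Of the 287, 81 were under 1 RPKM at D0, and of the 339, 152 were under 1 RPKM at D3. At least 10 RPKM on both days was found for 54 of the entries called higher and 50 of those called lower.

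**Figure D1:**
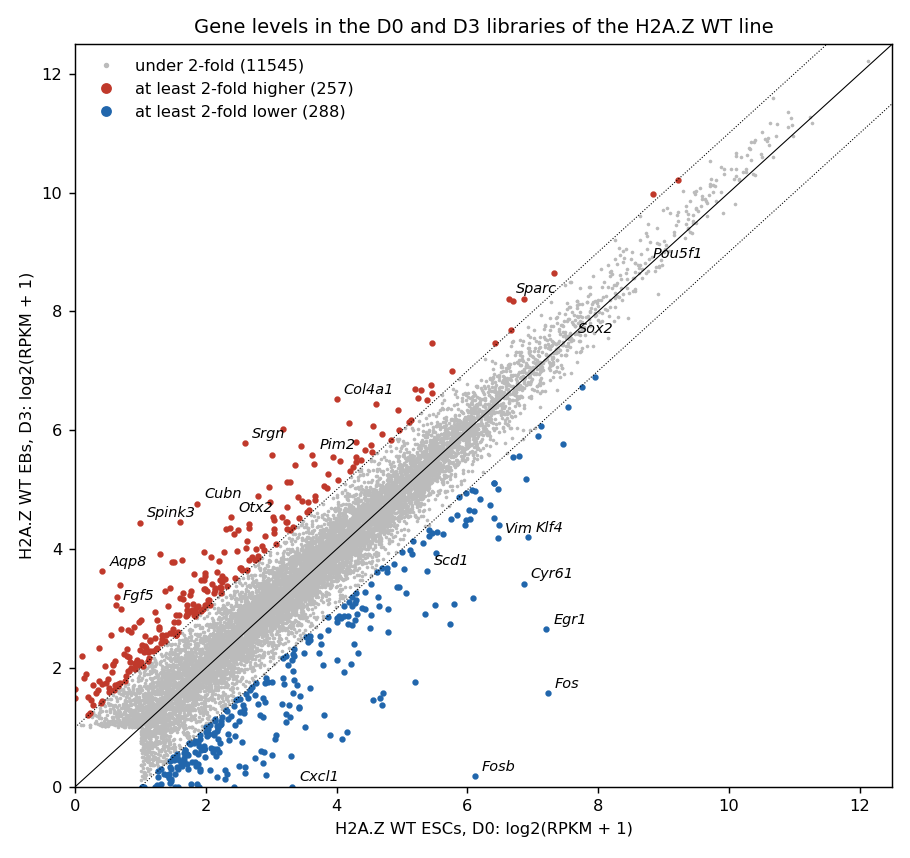
Level of each entry in the H2A.Z WT library at D0 (x axis) and at D3 (y axis), both as log2(RPKM + 1), without the entries named as small RNAs; the solid line marks equal levels and the dotted lines a 2-fold difference. The 257 genes called higher lie above and the 288 called lower below; *Fosb*, *Fos* and *Egr1* lie farthest from the line, and *Pou5f1* and *Sox2* lie on it.

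The labelled cell types were checked against their markers. *Pou5f1*, which encodes OCT4, stood at 421 RPKM at D0 and 448 RPKM at D3, and *Sox2* at 191 and 186 RPKM. The ESC markers *Zfp42* (203 and 141 RPKM) and *Esrrb* (92.2 and 65.5 RPKM) were lower at D3 by less than 2-fold. *T* (Brachyury, 0.26 and 0.34 RPKM), *Mixl1* (0.15 and 0.65 RPKM) and *Cdx2* (0.24 and 0.24 RPKM) were under 1 RPKM on both days. Among 15 trophectoderm genes, 9 reached 1 RPKM, among them the keratins *Krt8* (31.1 and 31.0 RPKM) and *Krt18* (34.6 and 64.4 RPKM), which other epithelia also express, and *Tead4* (9.29 and 9.601 RPKM), and *Hand1* was the member called, as lower. The D3 library therefore held the RNA of cells that still expressed *Pou5f1* and *Sox2*. Reads from the H2A.Z-YFP coding sequence fall on the exons of *H2afz*, so its 279 RPKM at D0 and 258 RPKM at D3 do not measure the hairpin. *H2afv*, the second H2A.Z gene, stood at 52.2 and 61.1 RPKM.

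The 2 libraries were of like depth, about 16800000 reads at D0 and 20900000 reads at D3 read off the spacing of the lowest RPKM values. At these depths 1 RPKM on a transcript of 2 kb stands for about 33.5 and 41.8 reads. The counting error of the change (a Poisson standard error from estimated reads) had a median of 0.14 over the entries called higher and of 0.14 over those called lower. It covers counting only, the reads carry no molecular identifiers and need not be separate molecules, and it says nothing of differences between cultures. Reads could be estimated for 274 of the entries called higher and 311 of those called lower, and of these 138 and 166 lay beyond 2-fold by more than 2 counting errors. The 150 entries named as small RNAs (small nucleolar RNAs, microRNA precursors and the like) are shorter than the fragments of a poly(A) library, and 54% of them were called, 30 higher and 51 lower. They are included in the counts over all entries but not described one by one.

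The state of the pluripotency network was read from 4 gene lists. None of the 12 core pluripotency genes was called in either direction, and their median change was -0.03. Of the 14 naive transcription factors 13 were lower by some amount, 3 of them by at least 2-fold (21.4%, against 2.77% of all entries), with a median of -0.51. Of 18 genes of the formative and primed epiblast 16 were higher by some amount and 8 by at least 2-fold (44.4%, against 2.34% of all entries), with a median of 0.74. Of the 8, 2 (*Fgf5* and *Fgf15*) were under 1 RPKM at D0. These passed the filter through D3 alone and had to be higher.

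Among the naive factors, *Klf4* differed most. It fell from 121 RPKM at D0 to 17.4 RPKM at D3, a change of -2.73 with a counting error of 0.06. The same gene fell from 131 to 17.1 RPKM in the KD line and from 65.9 to 14.9 RPKM in the AP3 line, so that no D3 library reached the lowest D0 library. *Tcfcp2l1*, a transcription factor of the naive network that responds to LIF, fell from 42.8 to 18.2 RPKM (-1.19). *Tet2*, an enzyme that oxidises methylated cytosine, fell from 17.7 to 8.17 RPKM (-1.03), and *Tet1* from 57.5 to 28.2 RPKM (-1.002). *Klf2* stood at 123.5 and 63.0 RPKM (-0.96) and *Gbx2* at 9.41 and 4.36 RPKM (-0.96), both just inside 2-fold. At the other end of the list, *Prdm14* (6.93 and 6.48 RPKM) and *Tcl1* (21.9 and 26.1 RPKM) were at similar levels on both days. In the core list the range ran from *Tdgf1*, the Nodal co-receptor (481 and 312 RPKM, -0.62), to *Lin28a*, an RNA-binding repressor of let-7 (90.8 and 136 RPKM, 0.58).

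The epiblast genes moved the other way. *Fgf5* lies at chr5:98683203-98706049 (mm9, plus strand, 3 exons) and encodes a growth factor that marks the primed epiblast. It rose from 0.539 RPKM at D0 to 7.34 RPKM at D3 (2.44, counting error 0.12). *Otx2*, a homeobox factor of the epiblast and forebrain, rose from 4.22 to 22.3 RPKM (2.16). The KD line gave 5.14 and 24.6 RPKM for *Otx2* and the AP3 line gave 1.37 and 17.5 RPKM, so its days did not overlap across the 3 lines. *Pim2*, a serine/threonine kinase, rose from 11.4 to 47.1 RPKM and *Sall2*, a zinc finger factor, from 1.58 to 8.81 RPKM (1.93). *Sox3* (1.27), *Cldn6* (1.05), the de novo DNA methyltransferase gene *Dnmt3b* (1.04) and *Fgf15* (1.02) were the other members called. For *Dnmt3b* this was a rise from 34.0 to 71.2 RPKM, while its partner *Dnmt3a* stood at 29.4 and 27.2 RPKM.

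Of 14 genes of the LIF and STAT3 pathway 12 were lower by some amount, and 2 passed 2-fold (14.3%, against 2.77% of all entries). *Socs3*, a feedback inhibitor of the LIF receptor that STAT3 induces, fell from 54.6 to 7.42 RPKM (-2.72). In the KD line it went from 80.3 to 5.95 RPKM and in the AP3 line from 47.1 to 5.65 RPKM. *Junb*, which is also an immediate early gene, fell from 67.0 to 8.06 RPKM (-2.91). The receptor subunits *Lifr* (18.4 and 11.96 RPKM, -0.58) and *Il6st* (21.4 and 15.2 RPKM, -0.47) and *Stat3* itself (19.96 and 12.47 RPKM, -0.64) differed by less than 2-fold. The other feedback inhibitors of the list, *Socs2* (32.0 and 34.1 RPKM, 0.09) and *Cish* (1.76 and 1.34 RPKM, -0.24), did not share the size of the difference in *Socs3*.

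Genes of the primitive endoderm and its basement membrane made up 5 of the 15 largest increases (*Spink3*, *Cubn*, *Amn*, *Col4a1* and *Col4a2*). Of 10 endoderm transcription factors that reached 1 RPKM, 10 were higher by some amount and 7 by at least 2-fold (70%, against 2.34% of all entries), with a median of 1.33, which became 2.18 with a pseudocount of 0.1 and 2.31 with 0.001. Of 13 visceral endoderm effectors that reached 1 RPKM (21 are on the list), 8 were called higher (61.5%, against 2.34% of all entries) and none lower. Their median was 1.49, or 0.85 over all 21. Of the members called, 5 of the 7 transcription factors and 4 of the 8 effectors were under 1 RPKM at D0 and so reached 1 RPKM through D3 alone; these had to be higher, and the counts are no support for a direction. Of the 18 basement membrane genes 7 were called higher (38.9%, against 2.34% of all entries) and none lower, with a median of 0.60. These lists have 10, 13 and 18 members among the 12240 entries. Together they hold 22 of the 287 entries called higher (7.67%), and none of the 339 called lower. The 5 factors and 4 effectors that reached 1 RPKM through D3 alone could not have been called lower.

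The transcription factors were at low levels on both days. *Gata6* rose from 2.96 to 11.1 RPKM (1.61) and *Gata4* from 3.24 to 13.7 RPKM (1.79). *Sox17* rose from 0.974 to 5.84 RPKM (1.79), *Sox7* from 0.486 to 2.83 RPKM (1.36) and *Foxa2* from 0.420 to 2.499 RPKM (1.301). *Hnf4a*, a nuclear receptor of visceral endoderm and liver, came last among those called, at 0.143 and 1.32 RPKM (1.02). The GATA factors therefore reached the highest levels of the group at D3. *Hhex* (3.64 and 4.82 RPKM) and *Eomes* (1.07 and 1.86 RPKM) stayed within 2-fold.

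The genes for protein uptake were prominent. *Cubn*, which encodes the large endocytic receptor cubilin, lies at chr2:13197965-13413503 (minus strand, 67 exons). It rose from 2.64 RPKM at D0 to 26.2 RPKM at D3 (2.90, counting error 0.12), the change of largest size in the list after *Spink3*. *Amn*, whose product amnionless anchors cubilin in the membrane, rose from 1.47 to 14.2 RPKM (2.62). *Lrp2*, the gene of the co-receptor megalin, rose from 5.29 to 20.5 RPKM (1.77), and that of the adaptor *Dab2* from 9.25 to 41.8 RPKM (2.06). All parts of this uptake complex were thus higher at D3, by 1.77 to 2.90, where the transcription factors that were called ranged from 1.02 to 1.79. *Spink3*, a serine protease inhibitor gene, rose from 0.987 to 20.8 RPKM (3.46), and *Cyp26a1*, which encodes an enzyme that degrades retinoic acid, from 0.287 to 4.06 RPKM (1.98).

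Most plasma protein genes of mature visceral endoderm were at low levels on both days, where the pseudocount understates a change. The exception was *Apoa2*, at 22.7 and 14.1 RPKM (-0.65), the only member that reached 1 RPKM and was lower at D3. *Ttr* (transthyretin) was called higher (1.49), listed at 0 at D0 and at 1.81 RPKM at D3. *Apoa1* stood at 0.288 and 1.32 RPKM (0.85), and *Rbp4*, a retinol carrier, at 1.22 and 3.16 RPKM (0.90). *Afp*, *Apob*, *Apoa4* and *Apoc2* did not reach 1 RPKM on either day in this line. These were at 0.633, 0.904, 0.545 and 0.703 RPKM at D3, against 0, 0.0662, 0 and 0.0735 RPKM at D0.

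The basement membrane genes gave the highest levels. *Col4a1* and *Col4a2* encode the collagen IV chains and are transcribed away from each other from a shared promoter region, at chr8:11198423-11312826 (minus strand, 52 exons) and chr8:11312829-11449286 (plus strand, 48 exons). *Col4a1* rose from 14.98 to 90.9 RPKM (2.52, counting error 0.05) and *Col4a2* from 10.0 to 52.3 RPKM (2.28). The laminin chains *Lama1* (17.3 and 69.0 RPKM, 1.94) and *Lamb1* (42.6 and 107 RPKM, 1.31) were called, and *Lamc1* (61.4 and 97.9 RPKM, 0.66) was not. *Sparc*, a collagen-binding matrix protein gene, rose from 98.3 to 296 RPKM (1.58). The collagen prolyl hydroxylases *P4ha2* (5.16 and 16.5 RPKM, 1.51) and *P4ha1* (13.4 and 31.6 RPKM, 1.18) rose with them, and so did *Serpinh1*, a collagen chaperone gene outside the list (37.0 and 92.2 RPKM, 1.295). At the low end of the list were *Nid1* (20.4 and 12.7 RPKM, -0.65) and *Dag1* (34.5 and 25.7 RPKM, -0.41). Of the markers used for parietal endoderm besides *Sparc*, *Lama1* and *Col4a1*, *Plat* stood at 2.44 and 5.26 RPKM (0.86), and *Thbd* fell from 2.66 to 0.682 RPKM (-1.12).

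The other genes among the 15 largest increases, besides *Fgf5*, have varied roles. *Aqp8*, a water channel gene, rose from 0.333 to 11.4 RPKM (3.22). *Srgn*, which encodes the proteoglycan serglycin, rose from 5.05 to 54.1 RPKM (3.19). *Pth1r*, the receptor gene for parathyroid hormone and its related peptide, rose from 2.03 to 20.9 RPKM (2.85). *Car4*, a membrane-bound carbonic anhydrase gene, rose from 8.04 to 64.1 RPKM (2.85), *Hkdc1* from 0.613 to 9.57 RPKM (2.71) and the chloride channel family gene *Clic6* from 0.556 to 8.20 RPKM (2.56). *Kif1a*, a kinesin gene, rose from 1.78 to 12.7 RPKM (2.31), *Nxf7* from 0.633 to 6.99 RPKM (2.29) and *2810008D09Rik* from 7.07 to 47.0 RPKM (2.57). All of these genes were also higher at D3 than at D0 in the KD and AP3 lines.

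**Figure D2:**
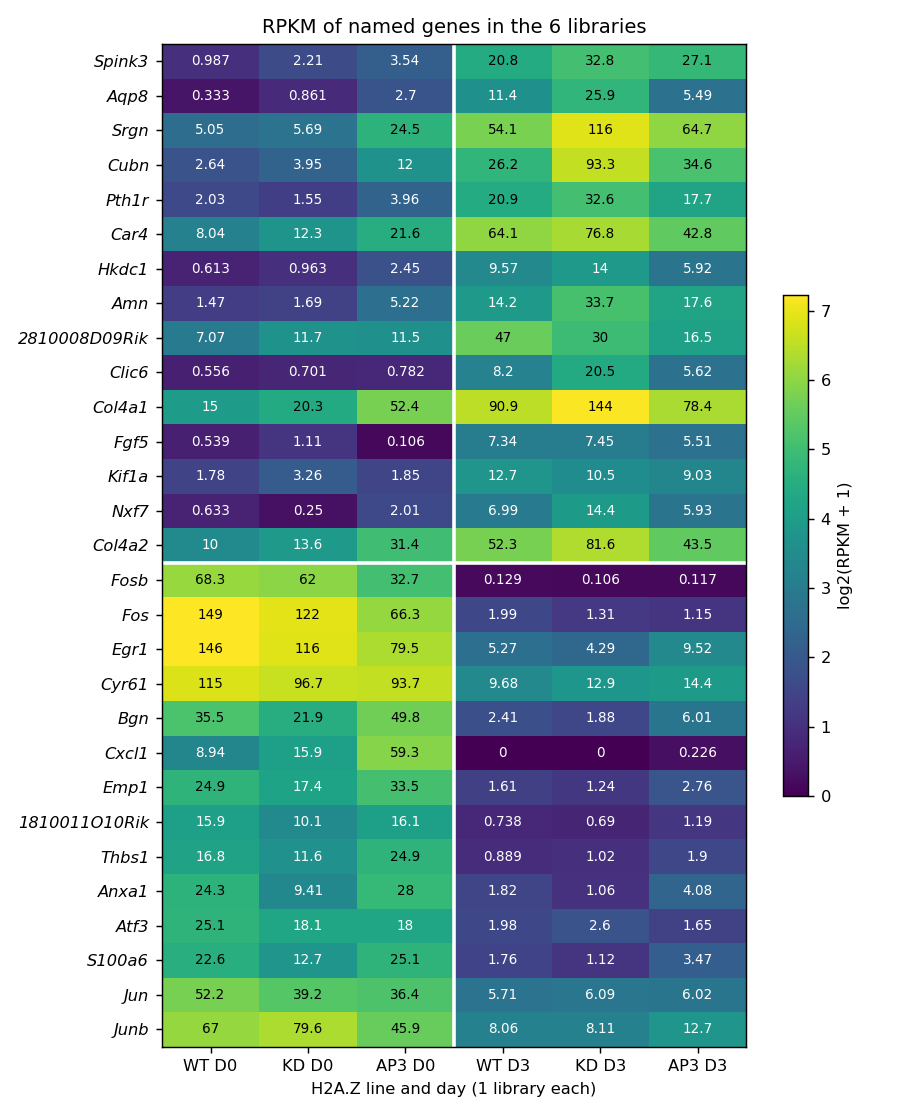
RPKM of the 15 genes with the largest increase (above the white line) and 14 of the 15 with the largest decrease (below it) in H2A.Z WT, printed in each cell for each of the 6 libraries and coloured by log2(RPKM + 1). Each gene shown lies on the same side of its D0 level at D3 in all 3 lines; the 3 D3 libraries hold *Fosb* at 0.106 to 0.129 RPKM.

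The largest decreases were those of immediate early genes, which cells transcribe within minutes of a growth factor or stress stimulus without new protein synthesis. All 14 members of this list reached 1 RPKM, and all 14 were at least 2-fold lower at D3 (100%, against 2.77% of all entries), with a median of -2.59. Of the 14, 3 (*Fosb*, *Egr2* and *Egr3*) were under 1 RPKM at D3. These passed the filter through D0 alone and had to be lower. Their summed level was 795 RPKM at D0 and 119 RPKM at D3.

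*Fosb*, which encodes a partner of JUN in the AP-1 transcription factor, lies at chr7:19888045-19895394 (minus strand, 4 exons). It fell from 68.3 RPKM at D0 to 0.129 RPKM at D3 (-5.94, counting error 0.06). *Fos* lies at chr12:86814851-86818219 (plus strand, 4 exons) and fell from 149 to 1.99 RPKM (-5.65). In KD *Fos* went from 122 to 1.31 RPKM and in AP3 from 66.3 to 1.15 RPKM, so the days did not overlap. *Egr1*, a zinc finger factor gene, fell from 146 to 5.27 RPKM (-4.55), *Atf3* from 25.1 to 1.98 RPKM (-3.13) and *Jun* from 52.2 to 5.71 RPKM (-2.99). *Egr2* fell from 6.604 to 0.146 RPKM (-2.73) and *Zfp36*, whose product promotes decay of AU-rich mRNAs, from 44.5 to 7.29 RPKM (-2.46). The members closest to the threshold were *Ier2* (103 and 45.6 RPKM, -1.15), *Ier3* (15.03 and 6.16 RPKM, -1.16) and *Egr3* (1.70 and 0.157 RPKM, -1.22). *Dusp1*, a MAP kinase phosphatase gene, fell from 80.1 to 25.8 RPKM (-1.60) and *Myc* from 6.50 to 1.70 RPKM (-1.48).

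Promoters of immediate early genes are known for the CArG box, the DNA element bound by serum response factor, and for the cAMP response element. Stretches that carry one are shown to let a reader see these elements in members of the list. They were found in the 250 bases before annotated starts (RefSeq, GRCm38.p6), on either strand, as the letters TGACGTCA for the cAMP response element and as the consensus with 6 A or T between CC and GG for the CArG box. A promoter sequence was at hand for 10 of the 14 genes, too few to compare the list with other genes. Among those 10, a CArG box was found in 2 and a cAMP response element in 1. The chromosome that holds *Egr1* was left out of this search, so these counts can be too low. Over all 27025 genes with a promoter sequence, where no chromosome was left out, the shares were 1.62% and 1.77%. The element is in capitals:
Egr2, chr10:67537787-67537816, plus strand: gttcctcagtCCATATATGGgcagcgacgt
Zfp36, chr7:28379267-28379296, minus strand: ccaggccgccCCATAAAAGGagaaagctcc
Dusp1, chr17:26508597-26508626, minus strand: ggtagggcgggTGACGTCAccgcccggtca
The levels of these 3 genes at D3 ranged from 0.146 RPKM for *Egr2* to 25.8 RPKM for *Dusp1*. A match is a description of the letters and not a sign of binding.

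Targets of serum response factor and of YAP, and contractile genes of smooth muscle, were lower in 12 of 13 members and called lower in 6 (46.2%, against 2.77% of all entries), with a median of -0.78. Of the 6, *Thbs1* was under 1 RPKM at D3, so it passed the filter through D0 alone and had to be lower. *Cyr61*, a matricellular protein gene induced by YAP, fell from 115 to 9.68 RPKM (-3.44), *Ctgf* from 88.8 to 20.1 RPKM (-2.09) and *Thbs1* (thrombospondin) from 16.8 to 0.889 RPKM (-3.23). *Tagln* fell from 16.4 to 2.80 RPKM (-2.19) and *Acta2*, the smooth muscle actin gene, from 12.6 to 4.26 RPKM (-1.37). In the AP3 line *Tagln* stood at 5.70 and 8.41 RPKM, so its direction there was the opposite. *Actn1* (59.7 and 64.1 RPKM) and the tropomyosins *Tpm1* (89.1 and 78.8 RPKM) and *Tpm2* (10.3 and 10.1 RPKM) were at similar levels on both days.

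Genes of fibroblasts, the cells used as feeders, were lower in the same comparison. Of 19 fibroblast markers in the table, 14 reached 1 RPKM, 10 of these were called lower (6 of them under 1 RPKM at D3; 71.4%, against 2.77% of all entries) and 1 higher (7.14%, against 2.34%), and their median was -1.11. It was -1.81 and -2.03 with pseudocounts of 0.1 and 0.001, and -1.74 over members with at least 5 RPKM. Their summed level was 95.7 RPKM at D0 and 34.7 RPKM at D3 in H2A.Z WT, 82.1 and 19.8 RPKM in KD, and 135 and 60.4 RPKM in AP3. The interstitial collagens *Col1a1* (9.76 and 1.54 RPKM) and *Col1a2* (12.9 and 1.298 RPKM) led the list together with *S100a4* (8.87 and 0.432 RPKM). Among defining markers, *Lum* was listed at 0 on both days, *Postn* at 0.112 and 0 RPKM, and *Dcn* at 0.321 and 0.381 RPKM. The exception was *Thy1*, a surface glycoprotein gene, which rose from 1.74 to 9.19 RPKM (1.89). Fibroblasts also express the immediate early, serum response and chemokine genes, and the part that a change in leftover feeder cells had in these decreases was not tested.

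Further genes among the 15 largest decreases are on none of these lists. *Bgn*, the gene of the proteoglycan biglycan, fell from 35.5 to 2.41 RPKM (-3.42), *Anxa1* (annexin A1) from 24.3 to 1.82 RPKM (-3.16) and *S100a6* from 22.6 to 1.76 RPKM (-3.10). *Emp1* fell from 24.9 to 1.61 RPKM (-3.31) and *1810011O10Rik* from 15.9 to 0.738 RPKM (-3.28). The intermediate filament gene *Vim* fell from 87.1 to 17.2 RPKM (-2.28), the only 1 of 13 genes on a list of the mesenchymal state to pass 2-fold (7.69%, against 2.77% of all entries). *Snai1* (1.89 and 3.64 RPKM) and *Fn1* (122.5 and 93.1 RPKM) on that list differed by less.

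Of 9 chemokine and inflammatory genes that reached 1 RPKM, 6 were called lower (4 of them under 1 RPKM at D3; 66.7%, against 2.77% of all entries), with a median of -1.61. This median was -0.19 over all 19 genes of the list without the filter, -2.62 and -2.84 with pseudocounts of 0.1 and 0.001, and -2.47 over members with at least 5 RPKM. *Cxcl1*, a neutrophil attractant gene, stood at 8.94 RPKM at D0 and was listed at 0 at D3. *Ccl2* fell from 7.05 to 0.454 RPKM (-2.47) and *Ptgs2*, the cyclooxygenase gene that inflammation induces, from 10.5 to 1.01 RPKM (-2.51). The level of *Ccl2* at D0 differed between the lines, at 11.9 RPKM in KD and 37.6 RPKM in AP3, and all 3 lines had 1.15 RPKM or less at D3. *Nfkbia* (33.7 and 44.9 RPKM) was the member that lay higher at D3, by less than 2-fold.

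A group with another role, the genes of cholesterol and fatty acid synthesis, was lower as a block. All 30 members reached 1 RPKM, 28 of them were lower by some amount and 14 by at least 2-fold (46.7%, against 2.77% of all entries), with a median of -0.99. None was called higher. Their summed level went from 1422 to 737 RPKM.

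The members span the pathway. *Hmgcs1*, whose enzyme makes HMG-CoA, fell from 84.2 to 33.7 RPKM (-1.29). Further down the pathway, *Idi1* fell from 72.1 to 27.7 RPKM (-1.35), *Lss* from 39.1 to 16.1 RPKM (-1.23), *Cyp51* from 45.3 to 18.5 RPKM (-1.24), *Sc4mol* from 87.9 to 31.2 RPKM (-1.47) and *Dhcr7* from 34.4 to 14.1 RPKM (-1.23). *Insig1*, a sterol-regulated brake on the pathway, fell from 109 to 46.2 RPKM (-1.23). The largest decrease was that of the desaturase gene *Scd1* (40.8 and 11.4 RPKM, -1.75), and the smallest among those called was that of *Pmvk* (31.1 and 14.53 RPKM, -1.05). *Fasn* (50.2 and 36.0 RPKM, -0.47), *Acly* (98.8 and 77.7 RPKM, -0.34) and the factor *Srebf2* (66.1 and 42.0 RPKM, -0.64) differed by less than 2-fold. *Tm7sf2* (15.4 and 22.3 RPKM, 0.51) was the highest.

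Sterol-sensitive genes carry a sterol regulatory element, and it was found in the promoter window of 1 member of the list, as the letters TCACNCCAC on either strand. The chromosome that holds *Egr1* was left out of this search too, so the count can be too low. A promoter sequence was at hand for 21 of the 30 genes, too few to compare the list with others. The share over all 27025 genes with a promoter sequence was 1.22%. It is shown because *Hmgcs1* acts early in the pathway, with the element in capitals (RefSeq, GRCm38.p6):
Hmgcs1, chr13:119690203-119690232, plus strand: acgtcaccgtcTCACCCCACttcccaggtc
The element ends 129 bases before the annotated start. In the deposited mm9 table this gene has 2 entries with equal values on an unplaced part of chromosome 13, and they were counted once in the list.

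**Figure D3:**
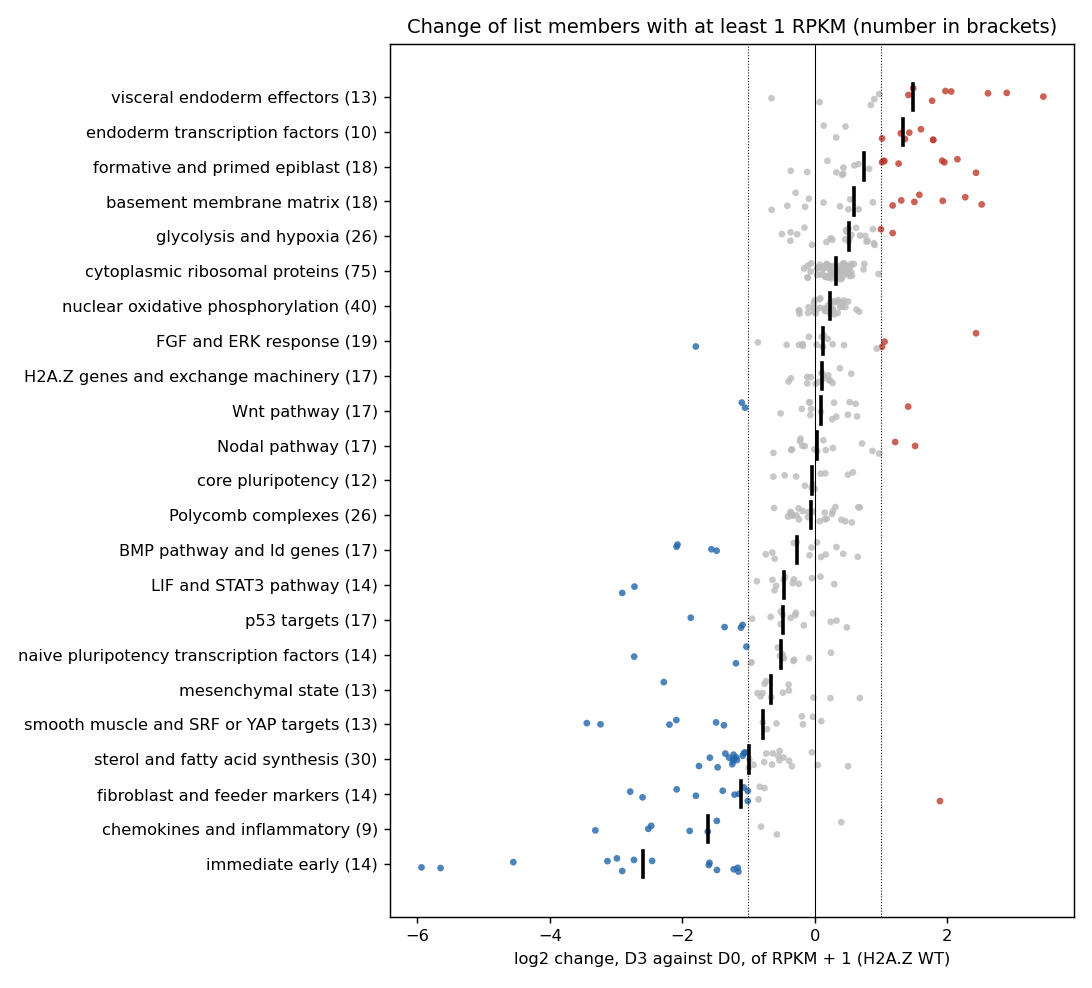
Change at D3 against D0 in H2A.Z WT (x axis, log2 of RPKM + 1) for the members of 23 gene lists that reached 1 RPKM, 1 point per gene, with the number of genes in brackets, the median as a thick bar and 2-fold as dotted lines. The 14 immediate early genes all lie below -1, the 30 sterol and fatty acid genes centre on -0.99, and the endoderm lists lie farthest to the right.

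Signalling pathways were mixed. In the Nodal list 2 of 17 members were called higher (11.8%, against 2.34% of all entries) and none lower, and the median was 0.04. *Lefty2*, a Nodal antagonist that Nodal induces, rose from 22.1 to 52.7 RPKM (1.22). *Lefty1* stood at 47.8 and 95.1 RPKM (0.98), just under 2-fold, and *Nodal* itself at 14.8 and 16.8 RPKM. The antagonists thus differed by more than the ligand. Both *Lefty1* (10.9 and 147 RPKM) and *Lefty2* (3.27 and 56.3 RPKM) differed by more in the AP3 line, which began lower at D0. In the KD line *Lefty1* differed by less, at 68.4 and 75.1 RPKM (0.13).

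In the BMP list 4 of 17 members were called lower (23.5%, against 2.77% of all entries) and none higher. The ligand *Bmp4* fell from 9.23 to 2.47 RPKM (-1.56), and *Id3* (18.97 and 3.75 RPKM, -2.07) and *Id2* (12.2 and 3.74 RPKM, -1.48), inhibitors of bHLH factors that BMP induces, fell as well, while *Id1* (7.42 and 4.05 RPKM, -0.74) and *Id4* (4.87 and 8.22 RPKM, 0.65) differed by less than 2-fold in opposite directions. *Grem1*, a BMP antagonist gene also expressed by fibroblasts, fell from 9.68 to 1.52 RPKM (-2.09). The receptor *Bmpr1a* (15.9 and 17.1 RPKM) and the transducer *Smad1* (7.04 and 9.10 RPKM) were at similar levels. In the Wnt list *Dkk1*, an antagonist expressed in anterior visceral endoderm, rose from 0.734 to 3.62 RPKM (1.41), while *Sp5* fell from 1.4003 to 0.119 RPKM (-1.10) and *Axin2* stood at 2.91 and 3.17 RPKM. In the FGF list *Etv4* fell from 32.4 to 8.62 RPKM (-1.79) and *Spry1* rose from 5.76 to 13.0 RPKM (1.06), while *Dusp6* (27.3 and 27.8 RPKM), *Spry2* (79.8 and 59.3 RPKM) and *Fgf4* (56.9 and 50.2 RPKM) differed by less than 2-fold.

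Most regulators of later lineages were low on both days. Of 14 primitive streak factors 3 reached 1 RPKM, and the other 11 stayed at or under 0.651 RPKM. Among 39 Hox genes, 2 reached 1 RPKM, both at D0 and not at D3, among them *Hoxb9* (2.02 and 0.367 RPKM). None of 9 neural genes that reached 1 RPKM was called, 6 of them were lower by some amount, and their median was -0.35. *Sox1* stood at 2.70 and 5.61 RPKM (0.84) and *Pax6* at 4.18 and 6.05 RPKM (0.45), against *En2* at 1.86 and 0.652 RPKM (-0.79) and *Neurod1* at 5.64 and 2.93 RPKM (-0.76). Higher levels on both days were those of *Olig2* (6.55 and 8.80 RPKM) and *Tubb3* (21.5 and 16.6 RPKM) on the neural list and of *Tcf15* (16.3 and 12.8 RPKM) on the mesoderm list. Some developmental factors were lower at D3, among them *Cdx1* (2.79 and 0.540 RPKM, -1.30) and *Hand1* (1.75 and 0.0922 RPKM, -1.33), the latter in a list of 16 mesoderm genes of which 6 reached 1 RPKM and 2 were called lower (33.3% of the 6, against 2.77% of all entries). Of the 6, *Hand1*, *Foxc1* and *Foxc2* were under 1 RPKM at D3. These passed the filter through D0 alone and had to be lower. The germline gene *Sycp3*, which encodes an axial element protein of meiotic chromosomes, rose from 14.4 to 46.0 RPKM (1.61), and the other 12 germline genes that reached 1 RPKM were within 2-fold. *Zscan4f* (2.55 and 0.339 RPKM) and *Zscan4c* (2.07 and 0.305 RPKM), which mark the rare 2-cell-like cells of ESC cultures, were called lower, but these gene copies are near-identical and share reads.

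Housekeeping and chromatin lists held few calls. No gene of 75 cytoplasmic ribosomal proteins, 40 nuclear oxidative phosphorylation subunits, 26 Polycomb proteins or 17 H2A.Z and exchange machinery proteins was called in either direction. Their median changes were 0.32, 0.23, -0.06 and 0.11. The ribosomal and oxidative phosphorylation genes were nevertheless one-sided, with 69 of 75 and 32 of 40 higher by some amount. Of the 26 genes of glycolysis and hypoxia 20 were higher by some amount, with a median of 0.52, and 2 passed 2-fold (7.69%, against 2.34% of all entries): *Aldoa*, the aldolase gene, rose from 593 to 1190 RPKM (1.00), and *P4ha1* was named above. Of 12 reference genes 1 was called lower (8.33%, against 2.77% of all entries), and *Gapdh* (0.18), *Actb* (-0.25) and *Tbp* (-0.09) were among those within 2-fold. Of 23 imprinted genes, the neighbours *H19* (17.6 and 3.17 RPKM, -2.16) and *Igf2* (17.8 and 7.23 RPKM, -1.19) fell with *Peg10* (83.5 and 21.9 RPKM, -1.88). *Meg3*, a long noncoding RNA gene merged in the table with 2 microRNAs that it hosts, rose from 116 to 294 RPKM (1.34).

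Genes called in the same direction sometimes lay side by side. Among genes that reached 1 RPKM, ordered along the mm9 chromosomes without small RNAs, 15 adjacent pairs were both called higher and 21 both called lower. They held 28 of the 255 genes called higher (11%) and 41 of the 278 called lower (14.7%). Of all genes so ordered, 2.12% and 2.31% were called. A gene has a neighbour on each side, so random order would put a larger share than these rates in pairs. That share was not computed. Examples were *Col4a1* with *Col4a2*, *Pth1r* with *Myl3*, *Ccl2* with *Ccl7*, *S100a4* with *S100a6*, *Cav1* with *Cav2* and *H19* with *Igf2*. Families with similar sequence are among them, so that shared reads can add to a pair, and no test of this arrangement was made.

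The same interval was set beside the other lines, which share no library with H2A.Z WT. At D3 the KD line had 302 of 12184 entries called higher (2.48%) and 348 lower (2.86%), and the AP3 line 227 of 12204 higher (1.86%) and 439 lower (3.6%). Of the 287 entries called higher in H2A.Z WT, 147 (51.2%) were also called higher in KD and 97 (33.8%) in AP3, and 64 (22.3%) in both. Of the 339 called lower, 190 (56.0%) were also called lower in KD and 169 (49.9%) in AP3, and 121 (35.7%) in both. Most of the rest lay on the same side of 0 under 2-fold: counting these, 256 of the 287 were higher in KD and 248 in AP3, and 302 of the 339 were lower in KD and 285 in AP3. Over all 12240 entries, 54.5% were higher in KD and 54.1% in AP3, and 45.3% and 45.7% were lower. Calls of H2A.Z WT with no call in either other line in that direction numbered 107 higher and 101 lower. Without small RNAs they were 88 of 257 higher (34.2%) and 67 of 288 lower (23.3%). The lines are not replicates of each other, and differences between them were not tested.

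**Figure D4:**
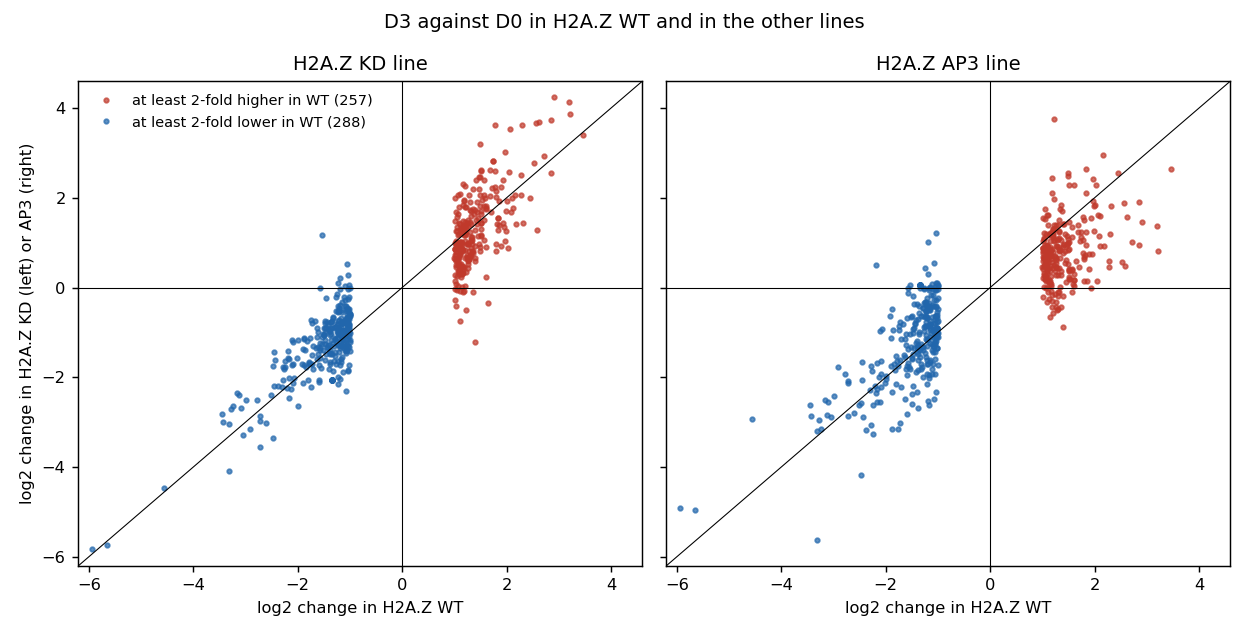
Change at D3 against D0 (log2 of RPKM + 1) of the 545 genes called in H2A.Z WT, small RNAs left out (x axis), against the change of the same gene in the KD line (left) and the AP3 line (right); the diagonal marks equal change. Most points lie in the lower left and upper right, and the points called higher in H2A.Z WT lie closer to 0 in AP3 than in KD.

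By list, the lines were near each other in some groups and apart in others. The fibroblast markers had medians of -1.11, -1.18 and -1.30 in H2A.Z WT, KD and AP3, and the immediate early genes -2.59, -2.30 and -1.95. The sterol list had -0.99, -0.72 and -0.32, with 14, 4 and 0 members called lower. Visceral endoderm effectors had medians of 1.49, 3.02 and 1.45, with *Cubn* at 26.2, 93.3 and 34.6 RPKM at D3 and *Dab2* at 41.8, 129 and 70.3 RPKM. The basement membrane list had 0.60, 0.92 and -0.05. For this list the D0 levels differed as well: *Col4a1* measured 14.98 RPKM in WT, 20.3 RPKM in KD and 52.4 RPKM in AP3 on D0, and reached 90.9, 144 and 78.4 RPKM on D3. *Lama1* went from 17.3 to 69.0 RPKM in WT and from 22.8 to 123.4 RPKM in KD, and stood at 65.2 and 64.7 RPKM in AP3. The summed level of the list was 564, 578 and 949 RPKM at D0 and 1106, 1490 and 950 RPKM at D3. The low change in AP3 thus went with a high level before differentiation. The formative list had medians of 0.74, 0.89 and 1.47.

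**Figure D5:**
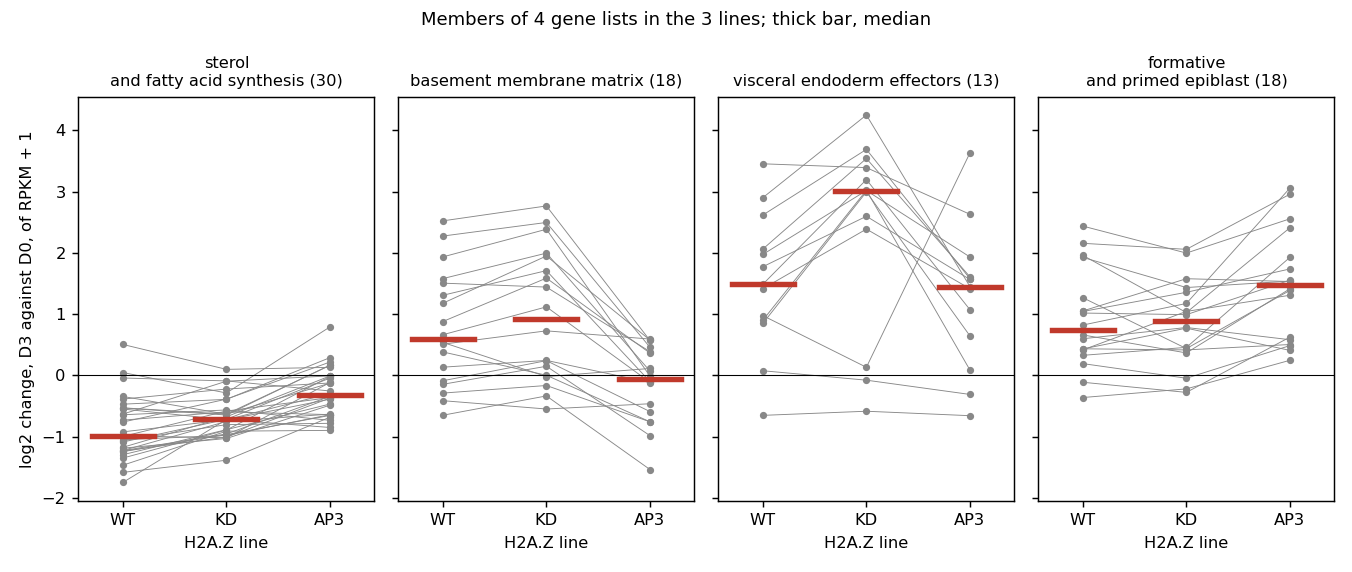
Change at D3 against D0 (y axis, log2 of RPKM + 1) of each member of 4 lists in the H2A.Z WT, KD and AP3 lines, with lines joining the same gene and a thick bar at the median; members reached 1 RPKM in H2A.Z WT. Medians of the basement membrane list run from 0.60 in WT to -0.05 in AP3, and those of the visceral endoderm list peak at 3.02 in KD.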

How the data were processed

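RNA-Seq was analysed in H2A.Z WT ESCs (D0) and EBs (D3), with 1 library each, and the H2A.Z KD and AP3 libraries (1 per line and day) were set beside them. The authors selected poly(A) RNA, made single-end Illumina libraries of about 200 bp fragments, aligned reads to mm9 with TopHat and Bowtie 0.12.7, allowing 2 mismatches and 20 locations, and deposited 1 RPKM per gene and library, made with Cufflinks 1.3.0. A read at several locations can thus add to near-identical genes. The authors' log2 ratios between lines, in the same table, were not used.

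From the deposited RPKM, log2 changes were computed with a pseudocount of 1 over entries with at least 1 RPKM in either library, and called at 2-fold. The pseudocount understates the change of low genes. No p-value was computed. Named genes are the 15 largest increases and 15 largest decreases with at least 5 RPKM in the higher library, small RNAs left out, and members of 40 gene lists. Single values of some of these genes are not reported here. A list was described by its counts and median. The members, lists and rules were chosen with earlier results of these data known. Symbols were matched exactly, or within one of 203 merged entries, and 24 entries whose symbols had become dates could not be matched. Starts were raised by 1. Exon counts, and the transcript lengths used for read estimates, came from GENCODE on NCBIM37 (the mm9 assembly), where 99.2% of symbols with 1 gene overlapped at the same locus. Depth was estimated on 3696 genes with 1 transcript over 1500 bases. The scripts were tested on simulated data. The alternatives were pseudocounts of 0.1 and 0.001, no filter or one of 5 RPKM, a 1.5-fold threshold, centring on the median, and summing entries of a symbol. Python 3.11 with numpy, pandas, scipy and matplotlib was used.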

Additional observations from a re-analysis of the deposited data

Results flagged for a closer look

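Outside the small RNAs, 4 genes called in H2A.Z WT were called in the opposite direction in another line. With 1 library per line and day, these differences were not tested. *Igf2*, an imprinted growth factor gene, fell by 1.19 on the log2 scale in H2A.Z WT (17.8 and 7.23 RPKM), stood at 8.46 and 8.19 RPKM in KD, and rose from 7.28 to 15.6 RPKM in AP3. *Slpi*, a secreted protease inhibitor gene, changed by 1.39 in H2A.Z WT (1.44 and 5.42 RPKM), against a fall from 3.34 to 0.866 RPKM in KD. *Msmp* changed by -1.53 in H2A.Z WT, from 1.90 RPKM to a listed 0, while it went from 0.289 to 1.92 RPKM in KD. *Pmch*, a neuropeptide gene, changed by -1.04, from 1.05 RPKM to a listed 0, against a listed 0 and 1.32 RPKM in AP3. Of these, only *Igf2* was above 5 RPKM in every library. A further 19 entries named as small RNAs were called in opposite directions.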

How the results depend on the processing

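With 1 library per condition, the spread between cultures is unknown, no replicate could be left out, and no paired analysis was possible because H2A.Z WT alone gives 1 pair of days (pairing the days by line over all 3 lines was not done). The counts of called entries depended on the settings: 287 higher and 339 lower became 569 and 604 with a pseudocount of 0.1, 608 and 642 with 0.001, 1057 and 917 at 1.5-fold, and 194 and 184 with at least 5 RPKM. Centring on the median gave 266 and 366, summing entries of a symbol 285 and 330, leaving out small RNAs (chosen after seeing the data) 257 and 288, and no filter the same counts as the main setting. With at least 5 RPKM, the list counts that moved most were the endoderm transcription factors (3 higher, from 7), visceral endoderm effectors (5, from 8) and fibroblast markers (5 lower, from 10), since fewer genes enter. None of the 30 named genes changed sign under any of the settings tried. With the smaller pseudocounts, 23 of the 30 named genes moved beyond their counting interval. Genes near 1 RPKM rest on few reads. Medians of 6 lists moved with each smaller pseudocount (endoderm transcription factors, chemokines, mesoderm, mesenchymal, Hox and 2-cell-like genes), and without the filter those of the chemokine and Hox lists moved toward 0.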

Other observations

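Genes of lysosomal enzymes and membrane proteins, a list of 50 put together after their values were seen, were higher at D3 as a group in H2A.Z WT. Of 47 that reached 1 RPKM, 43 were higher by some amount, 10 by at least 2-fold and none lower by that much, with a median change of 0.53, against 2.34% of all entries called higher. *Ctsl*, the cathepsin L gene, went from 102 to 290 RPKM (1.49), *Lgmn* (legumain) from 22.6 to 66.5 RPKM (1.51), *Hexa*, a hexosaminidase subunit gene, from 42.9 to 98.1 RPKM (1.18) and *Ctsh* from 2.52 to 11.0 RPKM (1.77). The medians of the same genes were 0.67 in KD and -0.07 in AP3. In single genes, *Ctsl* changed by 2.05 in KD and 0.52 in AP3.

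Ferritin light chain and apolipoprotein E gave some of the largest additions in RPKM. *Ftl1* stood at 1627 RPKM at D0 and 3090 RPKM at D3 (0.92), and *Apoe* rose from 459 to 1009 RPKM (1.14). In AP3, *Apoe* stood at 846 and 712 RPKM.

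Of 57 replication-dependent histone entries that reached 1 RPKM, 8 were called lower in H2A.Z WT (against 2.77% of all entries) and none higher, with a median of -0.46, against -0.96 in KD and 0.19 in AP3. Most of these transcripts lack a poly(A) tail, and the library was made from poly(A) RNA.

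*Trim54*, a muscle ubiquitin ligase family gene, rose in H2A.Z WT from 3.58 to 12.9 RPKM (1.60) and stood at 3.66 and 4.46 RPKM in KD and 5.59 and 6.35 RPKM in AP3. It was chosen after its values were seen, and this difference between lines was not tested.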
